A study of Mus musculus with 14 samples.

Results

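The clustered histone genes are the histone genes that lie side by side in 4 chromosomal clusters of the mouse genome. They were taken as every row of the count table whose symbol opens with Hist1h, Hist2h, Hist3h or Hist4h, which gave 68 of 23282 genes, with no use of a measured value. Cluster 1, on chromosome 13, held 54 of them, cluster 2, on chromosome 3, held 10, cluster 3, on chromosome 11, held 3, and cluster 4, on chromosome 6, held 1. By protein, 6 were H1, 18 H2A, 19 H2B, 12 H3 and 13 H4 genes. All 68 symbols were found in the GENCODE annotation of GRCm38 at positions that overlap those of the count table.

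RNA was taken from epididymal white adipose tissue (eWAT), the fat pad attached to the epididymis, of male wild-type C57BL/6J mice that were 4 weeks old when feeding began. Batch 1 held 4 control libraries (control replicates 1 to 4), from mice on a normal diet for 20 weeks, and 5 WD libraries (WD replicates 1 to 5), from mice on a Western diet for 20 weeks, which is richer in fat. Batch 2 held 5 more control libraries (control replicates 5 to 9) from mice on the normal diet for 20 weeks. All WD libraries belong to batch 1, so diet and batch cannot be told apart when WD is set against batch 2. The labels number the libraries within a group without saying whether each is 1 animal, and the p-values measure only the spread between these libraries.

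Core histones H2A, H2B, H3 and H4 form the spool around which DNA is wound in a nucleosome, and the linker histone H1 sits where the DNA enters and leaves it. Most clustered genes are read when a cell copies its DNA, and their mRNA ends in a stem-loop bound by SLBP instead of a poly(A) tail. Some are also made with a poly(A) tail, mainly in cells that no longer divide. QuantSeq starts cDNA from an oligo-dT primer, which needs a run of A in the RNA, so the levels below are those of histone RNA that such a primer could capture and not of all histone mRNA. A library holds about 1 tag per captured molecule whatever the transcript's length, and levels are therefore given as CPM, counts scaled to the library total with TMM normalization, without division by length.

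The stem-loop was searched in the GENCODE transcripts because it marks the ending without a tail. It was found in 46 of the 68 members (67.6%) and in 109 of 141767 transcripts of all genes (0.0769%). It stood in 4 of 6 H1, 11 of 18 H2A, 10 of 19 H2B, 9 of 12 H3 and 12 of 13 H4 genes. A stem-loop beyond the end of a GENCODE model could not be found, and some models without one are short. That of Hist1h2bl held 381 bases, against 431 in the count table, and that of Hist1h4k 312, against 409. The counts therefore hold for the models, and a member without a hit may still have the stem-loop. The 3 forms below are shown because they cover the most members and differ between protein types, with the letters of the paired arms in capitals. The first form stood in 26 members, among them Hist1h2ap and Hist2h2aa1, the second in 7 H4 genes, among them Hist1h4h, and the third in 6 members of types H1, H2B and H3.
Hist1h2ap: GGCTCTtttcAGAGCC
Hist1h4h: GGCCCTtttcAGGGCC
Hist1h3c: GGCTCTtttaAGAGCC
All 34 stem-loops of H1, H2A, H2B and H3 genes opened with GGCTCT, whereas of the 12 in H4 genes 10 opened with GGCCCT and 2 with GGTCCT. A poly(A) signal (AATAAA or ATTAAA in the last 50 bases) was found in 17 members (25%), against 33.7% of all transcripts. Of the 68 members 14 held both features in these models and 19 held neither. Hist1h2bc and Hist2h2be, both H2B genes, had no stem-loop in their transcript.

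A run of at least 10 A was found in 4 members (5.88%), against 7.18% of all transcripts. In Hist1h2ao and Hist1h2ap, neighbouring H2A genes, 12 A stood directly before the stem-loop, and both genes hold the same letters there. The site is shown because these rows carry the clearest difference between the diets, with the run of A in capitals and the left arm of the stem-loop after it.
Hist1h2ap and Hist1h2ao: cccgaaaagAAAAAAAAAAAAggctctttt
Hist1h2be: gagacctggAAAAAAAAAAAtcagttccta
Hist1h2ac: ctaggagAAAAAAAAAAAAAAAgttctatg
In Hist1h2be and Hist1h2ac the run lay 1045 and 1187 bases before the end of a long transcript, far beyond the stem-loop. In Hist1h2ap it lay 19 bases before the end of the transcript and in Hist1h2ao 47 bases before it. Whether cDNA started at these runs was not tested.

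Upstream sequence was taken from RefSeq (GRCm38.p6, 300 bases around each start), which gave 63 promoters of members. Hist1h2be entered with more than 1 promoter, so these are counts of promoters and not of genes. TATAAA stood in 35 of the 63 (55.6%) and in 13.6% of all 32851 promoters, read on both strands. CCAAT stood in 54 member promoters (85.7%) against 37.4% of all promoters. All 51 promoters of H1, H2A, H2B and H3 genes held CCAAT, as did 3 of 12 promoters of H4 genes. The octamer ATTTGCAT stood in 14 member promoters (22.2%), 7 of H2A and 7 of H2B genes, against 1.74% of all promoters. Of the promoters, 2 are shown with these letters in capitals on either strand, Hist1h2ap because its row differed most clearly between the diets, and Hist1h2ac because its window covers the stretch it shares with its head-to-head neighbour Hist1h2bc, the member with the most counts.
Hist1h2ap, chr13:21833426-21833725, minus strand: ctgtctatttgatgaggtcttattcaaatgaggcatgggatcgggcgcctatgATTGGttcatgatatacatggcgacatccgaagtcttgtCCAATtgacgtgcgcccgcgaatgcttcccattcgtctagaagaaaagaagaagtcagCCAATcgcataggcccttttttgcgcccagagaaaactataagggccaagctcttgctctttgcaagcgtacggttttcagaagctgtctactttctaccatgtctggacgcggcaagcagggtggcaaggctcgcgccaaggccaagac
Hist1h2ac, chr13:23683910-23684209, minus strand: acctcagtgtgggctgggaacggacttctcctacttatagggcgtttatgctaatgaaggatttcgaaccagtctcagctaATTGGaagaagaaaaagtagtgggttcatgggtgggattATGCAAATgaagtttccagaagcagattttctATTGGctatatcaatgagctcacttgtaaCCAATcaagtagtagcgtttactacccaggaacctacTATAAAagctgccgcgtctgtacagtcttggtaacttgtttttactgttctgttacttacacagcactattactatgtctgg
The window of Hist1h2ac held all 3 motifs and that of Hist1h2ap only CCAAT. A match is a description of letters and not evidence of binding.

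Total counts ran from 10278970 to 13712254 per library, and 3 counts, the least taken as detected, equalled 0.219 to 0.292 CPM. These limits cover counting error only, since the methods name no molecular identifiers and PCR copies are counted. The batch 1 controls were uneven. Control replicate 1 held 170258 CPM of 12 epididymis marker genes (at most 51.4 in any other library), with Gpx5 alone at 125035 CPM, and 2530 CPM of 8 spermatogenic cell genes. Control replicate 4 had only 7999 genes with a count, against 10903 to 13780 in the other libraries, and 1380 CPM of 8 macrophage markers, against 170 to 696 in the other batch 1 controls. The fat cell marker Adipoq was at 882 CPM in control replicate 1 and at 3544 to 16663 CPM elsewhere, so the labelled tissue was present in every library.

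Only a few members carried most of the counts. Of the 68 members 7 had at least 10 counts in every library, 51 were at 0 in some library, and 2, Hist1h1t and Hist3h2bb-ps, had no count in any. The members with at least 3 counts numbered 19 to 40 (median 29.5) for batch 1 controls, 31 to 57 (median 42) for WD and 32 to 45 in the batch 2 controls (median 39). The 6 highest members, Hist1h2bc, Hist2h2aa1, Hist2h2aa2, Hist1h2ap, Hist1h4h and Hist1h2ao, held between 84.5% and 92.4% of all member CPM in every library. Every row was counted in this share, also rows with equal counts.

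**Figure D1:**
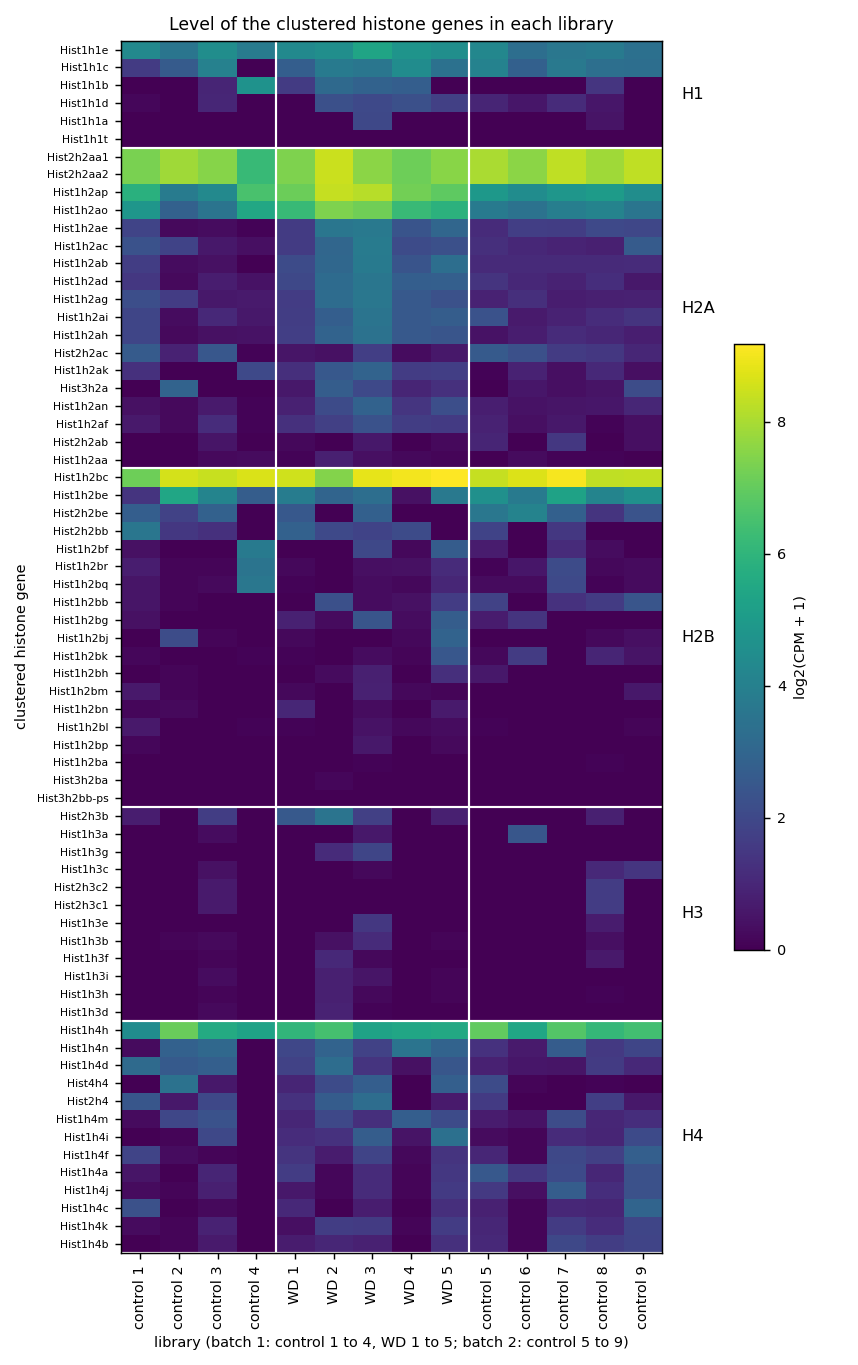
Level of each of the 68 clustered histone genes, as log2(CPM + 1) on a colour scale, in the 14 libraries (columns), with genes grouped by protein type and ordered by mean CPM. Few rows are bright throughout, most H3 and H2B rows are near 0, and the H2A rows of cluster 1 are brighter in the 5 WD columns than in most controls.

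Hist1h2bc, an H2B gene, had the highest mean of the members, 378 CPM over the 14 libraries. It was at 143, 387, 340 and 401 CPM in control replicates 1 to 4, at 364, 176, 456, 518 and 580 in WD replicates 1 to 5, and at 333, 415, 531, 317 and 326 in control replicates 5 to 9. Control replicate 1 and WD replicate 2 were the low libraries, and the groups overlapped. Hist2h2aa1 and Hist2h2aa2, H2A genes of cluster 2, had the same count in all 14 libraries, since their rows cover the same span of chromosome 3 (96239779 to 96246052) and 100% of the 75-base windows of the Hist2h2aa2 transcript occur in another member. They are described as 1 measurement. It was at 160, 234, 181 and 72.2 CPM in control replicates 1 to 4, at 168, 346, 191, 142 and 188 in WD replicates 1 to 5, and at 256, 189, 315, 231 and 312 in control replicates 5 to 9. WD replicate 2, the lowest WD library for Hist1h2bc, was the highest of all 14 for Hist2h2aa1. Hist2h3c1 and Hist2h3c2, H3 genes, also had equal counts in every library, but these were 0 except for 7 in control replicate 3 and 27 in control replicate 8.

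The next levels belonged to H4 and H1. Hist1h4h, a gene for H4, averaged 60.5 ± 50.7 CPM (SD, n = 4) over the batch 1 controls, 55.7 ± 20.3 (SD, n = 5) in the WD libraries and 84.8 ± 31.8 (SD, n = 5) in the batch 2 controls, with control replicate 2 the highest at 135 CPM. The other H4 genes stayed at or below 10.6 CPM in every library. Hist1h1e, a linker histone gene, had a mean of 18.2 CPM over the 14 libraries and Hist1h1c one of 9.63. Hist1h1b was at 24.8 CPM in control replicate 4, while no other library exceeded 7.83. H3 genes were the lowest type, with a sum over the 12 genes of 0 to 15.4 CPM, the highest in WD replicate 2 (15.4) and WD replicate 3 (9.5).

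Testis histones were checked because control replicate 1 held spermatogenic RNA. Hist1h1t and Hist1h2ba, which are known for their expression in male germ cells, had no count there, nor did Hist1h2aa. Over all libraries Hist1h2ba reached at most 1 count and Hist1h2aa at most 7.

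**Figure D2:**
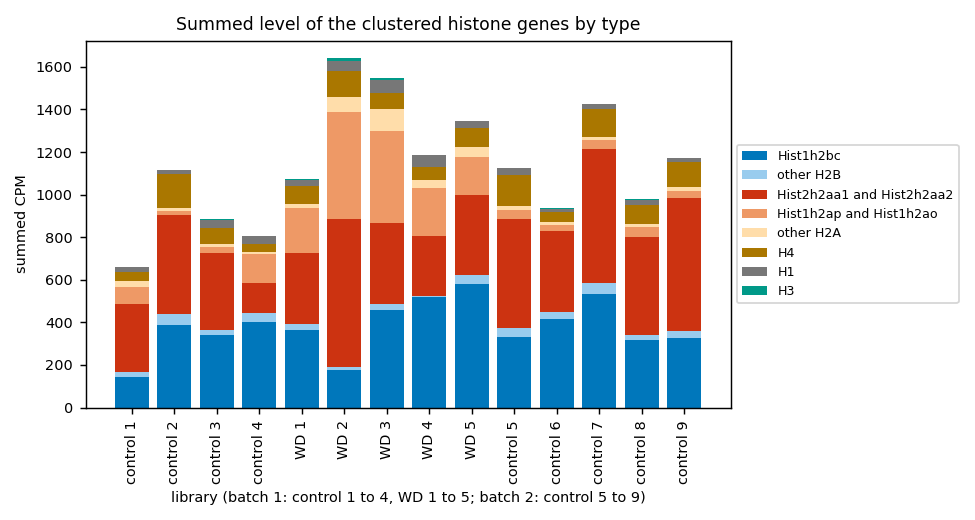
Summed CPM of the clustered histone genes in each library, stacked by gene or protein type. The totals, with rows of equal counts all added, run from 659 CPM in control replicate 1 to 1641 in WD replicate 2. The segment of Hist1h2ap and Hist1h2ao is widest in the WD libraries.

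Summed over all members, the level came to 866 ± 190 CPM (SD, n = 4) for batch 1 controls, 1359 ± 239 (SD, n = 5) in the WD libraries and 1129 ± 193 (SD, n = 5) in the batch 2 controls. Hist1h2ap and Hist1h2ao together held 1.75% to 16.9% of it for batch 1 controls, 13.2% to 30.7% for WD and 2.80% to 4.89% in the batch 2 controls. Without these rows the sum was 799 ± 229 CPM (SD, n = 4), 1049 ± 132 (SD, n = 5) and 1090 ± 193 (SD, n = 5), so that WD and the batch 2 controls lay within 1 SD of each other. By type, H2A was at 405 ± 89.4, 781 ± 312 and 576 ± 109 CPM in the same order, and H2B at 352 ± 130, 442 ± 163 and 421 ± 101. The equal rows of Hist2h2aa1 and Hist2h2aa2 both enter these sums and shares, as do the overlapping rows of Hist1h2ap and Hist1h2ao, so the same reads can be counted more than once. These sums were not tested. In bulk tissue, fewer cells that make a histone mRNA and less of it per cell cannot be told apart.

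The WD libraries were compared with the batch 1 controls to ask which members differ with diet. The level of Hist1h2ap was 55.7, 13.3, 19 and 91.9 CPM in control replicates 1 to 4 (516, 159, 228 and 1266 counts) and 138, 334, 289, 149 and 120 CPM in WD replicates 1 to 5 (1954, 3112, 3905, 1885 and 1435 counts). Every WD library was above every control, and control replicates 4 and 1 were the nearest to them. The log2 fold change was 2.19 (standard error 0.58, 4.56-fold), which did not pass over all genes (FDR = 0.434 in edgeR's quasi-likelihood test, unadjusted p = 0.00227). Hist1h2ao was at 27.5, 6.26, 10.6 and 44.2 CPM in the controls and at 72.0, 170, 145, 73.9 and 58.2 CPM in the WD libraries, with the same order of libraries. It was higher in WD by 2.22 on the log2 scale (standard error 0.58), also with FDR = 0.434 by edgeR. Leaving out control replicate 4 gave FDR = 0.0689 for Hist1h2ap and 0.0723 for Hist1h2ao by edgeR. Leaving out control replicates 1 and 4 together gave 0.0049 and 0.00755, at log2 fold changes of 3.67 and 3.62. These were the controls nearest to WD, so leaving them out could only widen the difference, and nothing is read from these omissions. With all 14 libraries the FDR came to 0.00647 for both without a batch term, and to 0.116 and 0.119 with one.

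**Figure D3:**
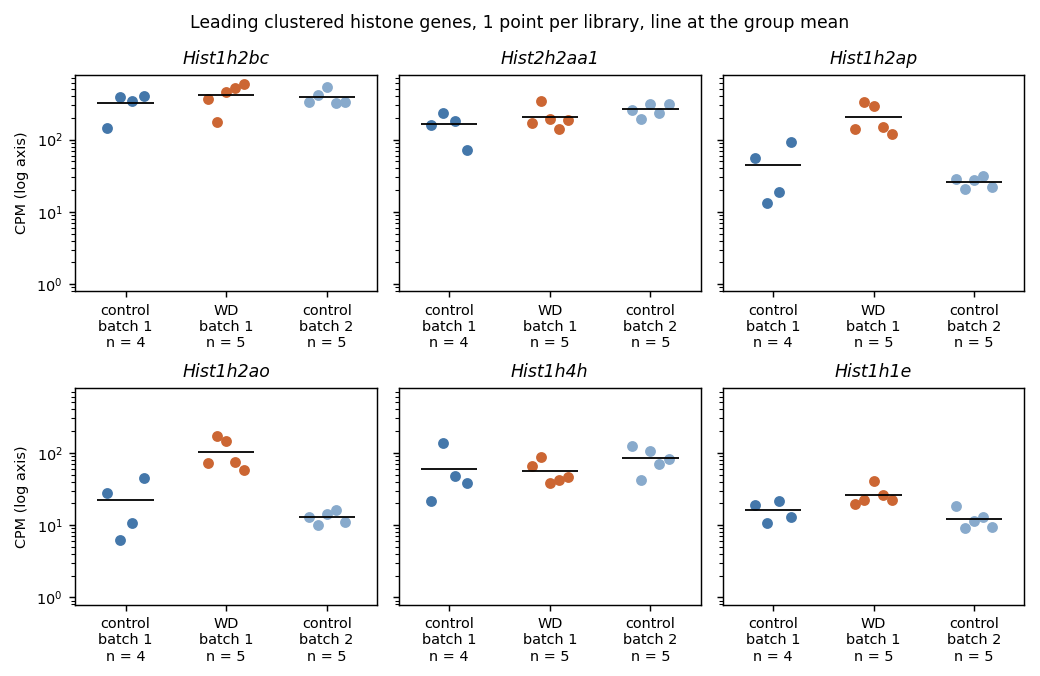
CPM on a log axis of 6 leading members, 1 point per library in the batch 1 controls (n = 4), the WD libraries (n = 5) and the batch 2 controls (n = 5), with a line at each group mean. For Hist1h2ap and Hist1h2ao all 5 WD points lie above all 9 control points, and for the other 4 genes the WD points overlap control points.

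Of the 68 members, 35 passed edgeR's filter on low counts in this comparison. An FDR under 0.05 was reached by 0 of 35 members and by 0 of all 12157 genes tested (0%). An unadjusted p under 0.05 was found for 3 members, against 5.17% of all genes. All 3 were higher in WD, against 3.35% of all genes in that direction, whereas 0 members and 1.82% of all genes were lower at that threshold. DESeq2 gave 2 members with an FDR under 0.05, Hist1h2ap and Hist1h2ao, among 114 genes (0.938%), and limma-voom gave 0. For 6 members the WD and control libraries did not overlap and WD was higher, against 3.03% of all genes. They were Hist1h2ap, Hist1h2ao, Hist1h2ab, Hist1h2ad, Hist1h2af and Hist1h2an, all H2A genes of cluster 1. No member had all WD libraries below the controls, against 0.847% of all genes. The median log2 fold change of the 35 members was 1.08, against 0.03 over all genes tested. These counts lean toward WD by construction, because 28 of the 35 members reached 10 counts in at least 4 WD libraries and only 8 did so in the 4 controls.

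The third member with an unadjusted p under 0.05 was Hist1h2ad, an H2A gene. It was at 1.84, 0.17, 0.67 and 0.36 CPM in control replicates 1 to 4 and at 2.96, 8.15, 11.2, 5.70 and 5.83 CPM in WD replicates 1 to 5, which is 3.14 on the log2 scale (standard error 1.43) with FDR = 0.956 by edgeR. By type, 15 of 16 tested H2A genes had a positive log2 fold change, as did 3 of 4 H1, 1 of 4 H2B, 8 of 10 H4 and 1 of 1 H3 genes, against 51.8% of all genes. Since 20 of the 35 passed the filter through the WD libraries only, and 0 through the controls only, the filter favoured this direction and nothing is read from these counts. The members with the highest levels showed smaller differences. The log2 fold change of Hist1h2bc was 0.40 (standard error 0.40), that of Hist2h2aa1 0.35 (standard error 0.38), that of Hist1h4h -0.12 (standard error 0.50) and that of Hist1h1e 0.69 (standard error 0.55), each with an FDR of at least 0.999 in edgeR's test. Hist1h2be, an H2B gene, was at 1.62, 42.4, 16.8 and 5.59 CPM in the controls and at 13.6, 6.87, 9.03, 0.32 and 12.1 CPM in the WD libraries, a log2 fold change of -0.99 (standard error 1.10) that came to 0.04 without control replicate 2.

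The 12 tested H2A genes of cluster 1 all had a positive log2 fold change, from 1.57 for Hist1h2ak to 3.41 for Hist1h2an. The filter on low counts favoured this direction, and these genes are not separate measurements. The row of Hist1h2ap runs from 21810467 to 21833475 on chromosome 13, a span of 23009 bases with 904 bases of exon, and so takes in most of the row of Hist1h2ao (21810367 to 21810918). The count table places this row on the plus strand, whereas the Hist1h2ap promoter shown above lies on the minus strand, at the far end of the span. Levels given for Hist1h2ap are thus those of a row that covers both loci, and not of that gene alone. Counts of Hist1h2ap were 1.80 to 2.23 times those of Hist1h2ao (median 2.00). Of the 75-base windows of the Hist1h2ap transcript, which match the read length, 92.6% occur without a mismatch in another member and 46.3% in genes outside the list. The shares were 92.6% for Hist1h2ao, 70.6% for Hist1h2ag, 53.7% for Hist1h2ad, 52.2% for Hist1h2ac and 19.6% for Hist1h2ak. Since reads with several alignments were counted, a read of Hist1h2ap could also be counted at these rows. Another annotated gene lies on the other strand of all 18 H2A rows, and within that of Hist1h2ap lie Gm19658 and Gm44466, on opposite strands. Whether strand was used in counting is not given in the sources used here, so reads of such neighbours cannot be told apart.

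**Figure D4:**
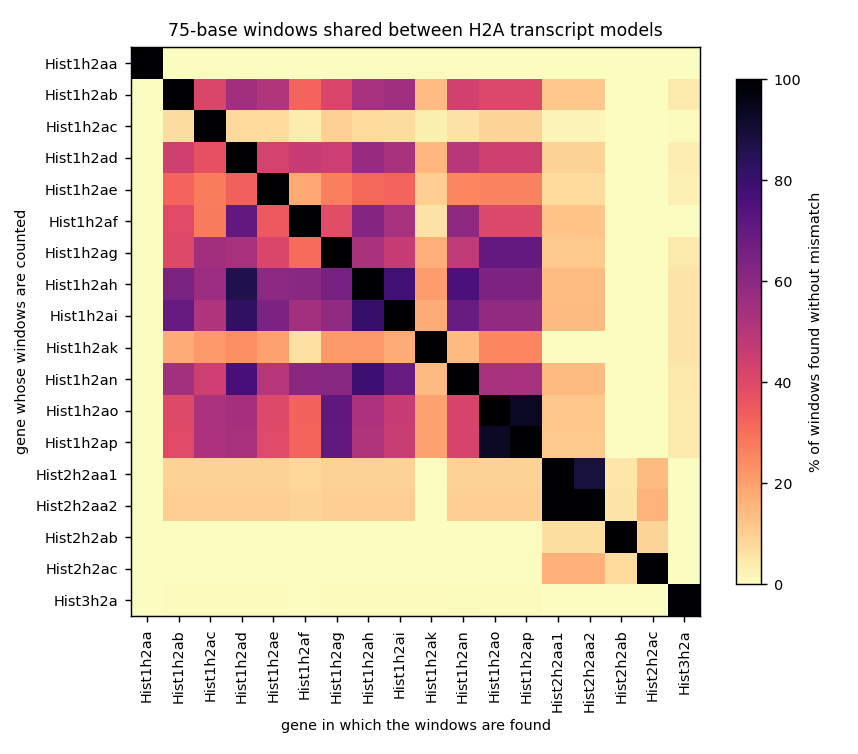
Share of the 75-base windows of each H2A transcript (rows) that occur without a mismatch in each other H2A transcript (columns), as a colour scale from 0% to 100%. Hist1h2ap and Hist1h2ao share 92.6% and 93.1% of their windows with each other and Hist2h2aa1 and Hist2h2aa2 most of theirs. Hist1h2ak shares at most 25.1%, Hist1h2ac at most 9.39% and Hist1h2aa none with any other H2A gene. The low share of Hist1h2ac is taken over a long model of 2482 bases, in which 52.2% of the windows of Hist1h2ap occur.

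Apart from Hist1h2ap, Hist1h2ao and the nearly undetected Hist1h2aa, the 10 other H2A genes of cluster 1 had few counts. Summed, they were at 22.1, 6.01, 5.50 and 5.44 CPM in control replicates 1 to 4, at 20.5, 65.2, 97.8, 38.5 and 47.4 CPM in WD replicates 1 to 5, and at 12.1, 9.63, 8.98, 10.8 and 14.6 CPM in control replicates 5 to 9. WD replicate 1 lay below control replicate 1, and the other WD libraries lay above all 9 controls. The sum equalled 5.92% to 45.3% of the Hist1h2ap counts for batch 1 controls, 14.8% to 39.7% for WD and 33.0% to 66.7% in the batch 2 controls. The lowest of these shares was that of control replicate 4, where Hist1h2ap had 1266 counts and the 10 genes together 75. How many reads were counted at several rows cannot be read from the table.

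The 9 control libraries allow a comparison of the batches under the same diet, batch 2 against batch 1. Of 31 members tested, 0 had an FDR under 0.05 in edgeR's test, as did 0 of 12106 genes (0%). An unadjusted p under 0.05 was found for 0 members and 7.39% of all genes (3.85% higher and 3.54% lower in batch 2), and by DESeq2 and limma-voom 0 members had an FDR under 0.05, against 0.917% of all genes by DESeq2. Hist1h4a was the 1 member whose batch 2 libraries were all above the batch 1 libraries, against 4.13% of all genes, and no member had the reverse order, against 1.16%. It was at 0 to 0.92 CPM in batch 1 and 0.99 to 4.80 in batch 2. Hist1h2ap was at 28.6, 21, 27.3, 31.7 and 21.9 CPM in control replicates 5 to 9, which lay inside the wider range of the batch 1 controls. The log2 difference of -0.79 (standard error 0.53) had FDR = 0.848 by edgeR and turned to 0.70 without control replicates 1 and 4. For Hist2h2aa1 it was 0.68 (standard error 0.32), with an unadjusted p of 0.0589 by edgeR. Positive log2 fold changes were found for 21 of the 31, against 49.9% of all genes. The median was 0.48, against -0.00 over all genes, and 16 members reached 10 counts in at least 4 libraries only in batch 2.

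Set against the batch 2 controls, the WD libraries are the same ones as above, and the result is no second sample of WD mice. In this comparison 2 of 38 tested members, Hist1h2ap and Hist1h2ao, rose with an FDR under 0.05 in edgeR's test, against 3.93% of all 12070 genes in that direction, and 0 members fell, against 2.48%. The rows of these 2 genes overlap, so they are not separate measurements. Hist1h2ap was 7.80-fold higher, or 2.96 on the log2 scale (standard error 0.30), with FDR = 1.59e-05 by edgeR. Hist1h2ao was higher by 2.99 on the log2 scale (standard error 0.32), with FDR = 2.85e-05 by edgeR. Hist1h2ao was at 12.9, 10.1, 14.1, 16.3 and 11 CPM in control replicates 5 to 9, below the lowest WD library at 58.2. Every omission of 1 library and every other setting kept both genes past the threshold, whereas diet and batch cannot be told apart here.

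For 9 members the WD libraries were all above the batch 2 controls, against 4.99% of all genes, and for 0 members all were below, against 3.8%. They were Hist1h1e and 8 H2A genes of cluster 1, Hist1h2ap, Hist1h2ao, Hist1h2ab, Hist1h2ad, Hist1h2af, Hist1h2ag, Hist1h2ah and Hist1h2ak. An unadjusted p under 0.05 was found for 8 members in the higher direction, against 9.83% of all genes, and for Hist1h2be in the lower direction, against 7.9%. Hist1h1e was at 19.6, 22.1, 40.2, 26 and 22.5 CPM in WD replicates 1 to 5 and at 18.1, 9.06, 11.5, 12.8 and 9.38 in control replicates 5 to 9. The difference of 1.08 on the log2 scale (standard error 0.35) had FDR = 0.0806 by edgeR, and in batch 1, where the controls were at 18.8, 10.8, 21.6 and 13.1 CPM, the groups overlapped. Hist1h2ab, an H2A gene, was at 3.32, 7.40, 12.7, 4.27 and 9.08 CPM in the WD libraries and at 1.12 to 1.2 CPM in the batch 2 controls, higher by 2.65 on the log2 scale with FDR = 0.0698 by edgeR. Leaving out WD replicate 4 brought it to FDR = 0.0432 by edgeR. Hist1h2be differed by -1.46 on the log2 scale (standard error 0.63) with FDR = 0.225 by edgeR, at 12.4 to 38.0 CPM in the batch 2 controls. DESeq2 gave 7 of 38 members with an FDR under 0.05 in this comparison, against 9.56% of all genes. They were Hist1h2ap, Hist1h2ao, Hist1h2ab, Hist1h2ad, Hist1h2ag, Hist1h2ah and Hist1h1e. Positive log2 fold changes were found for 25 of the 38, against 49.8% of all genes, with a median of 1.47, against -0.00. Of the 38, 13 reached 10 counts in at least 4 libraries only in WD and 9 only in batch 2.

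**Figure D5:**
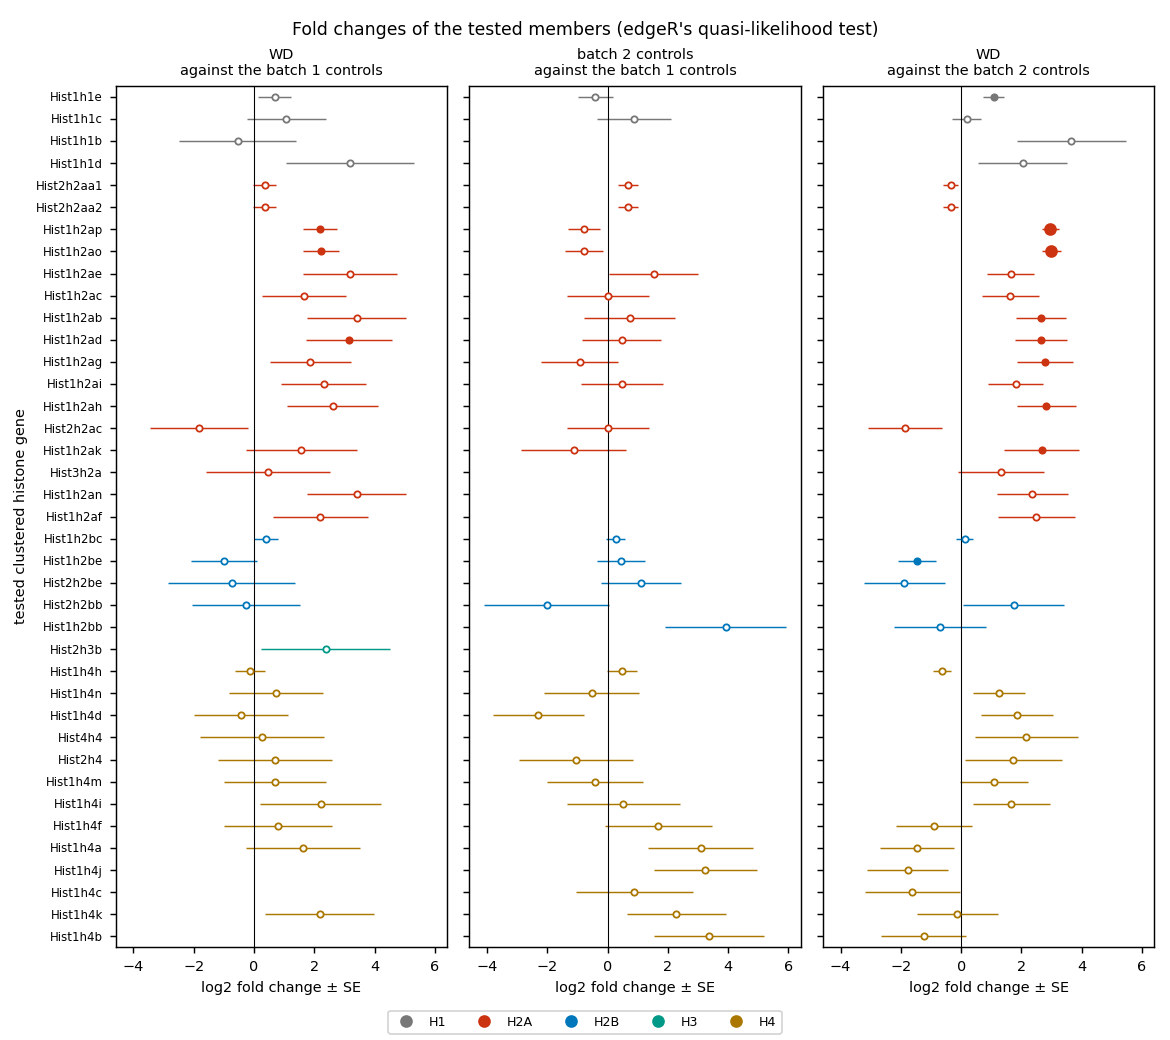
Log2 fold change ± standard error of every tested member in the 3 comparisons, coloured by protein type. Filled points have an unadjusted p under 0.05 and the largest points, Hist1h2ap and Hist1h2ao in the right panel, an FDR under 0.05. The H2A points of cluster 1 lie to the right of 0 in both panels with WD, and the H2B and H4 points lie on both sides. The filter on low counts favoured the WD direction and H2A rows can share reads, so nothing is read from these sides.

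Genes that make, carry or replace clustered histones were read from lists. Slbp, whose product binds the stem-loop, was at 3.16 ± 2.43 CPM (SD, n = 4) in the batch 1 controls, 7.44 ± 2.65 (SD, n = 5) in the WD libraries and 5.88 ± 3.13 (SD, n = 5) in the batch 2 controls. Npat, the cyclin-dependent activator of these genes, was at 16.2 ± 9.13, 22.1 ± 6.40 and 16.2 ± 4.35 CPM in the same order. Of 14 tested genes of histone mRNA maturation and turnover, 0 had an FDR under 0.05 in any of the 3 comparisons in edgeR's test. At an unadjusted p under 0.05 the count was 0 for WD against the batch 1 controls, where 5.17% of all genes passed. It was also 0 for batch 2 against batch 1, where 7.39% passed. For WD against batch 2 the counts were 1 higher and 2 lower, against 9.83% and 7.9% of all genes. Of 15 tested histone chaperones 1 rose against the batch 2 controls, where 3.93% of all genes did so. It was Daxx, which deposits H3.3 (1.09 on the log2 scale, standard error 0.22, FDR = 0.00600 by edgeR), and its FDR was 0.563 in batch 1.

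Replacement histones, which lie outside the clusters and are made in resting cells with a poly(A) tail, were at levels like those of the leading members. H2afz was at 131 ± 58.0, 128 ± 34.8 and 83.0 ± 5.95 CPM and H3f3a at 68.8 ± 11.2, 73.9 ± 27 and 83.8 ± 15.9 in the batch 1 controls (n = 4), the WD libraries (n = 5) and the batch 2 controls (n = 5). Of 10 tested genes 0 had an unadjusted p under 0.05 in batch 1, against 5.17% of all genes. H3f3b was the 1 gene that rose against the batch 2 controls, against 3.93% of all genes. It was at 162 ± 57.4, 171 ± 35.5 and 90.4 ± 12.7 CPM in the same order (log2 fold change 0.91, FDR = 0.0102 in edgeR's test).

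Markers of S phase and of macrophages were read in the same libraries. Over 24 genes of S phase and proliferation, the summed level was 134, 122, 178 and 326 CPM in control replicates 1 to 4, 363, 389, 547, 470 and 317 in WD replicates 1 to 5 and 136 to 183 in the batch 2 controls. Control replicate 4, the control with the highest Hist1h2ap, was also the highest control here. Control replicate 1, the next for Hist1h2ap and the library with epididymis RNA, was at 134 CPM and below most controls. Among the WD libraries the sum was highest in WD replicate 3 and Hist1h2ap in WD replicate 2. Against the batch 1 controls all 22 tested genes of the list had a positive log2 fold change (median 1.15, against 0.03 over all genes), 5 with an unadjusted p under 0.05 (3.35% of all genes were higher at that threshold) and 0 with an FDR under 0.05 in edgeR's test. Against the batch 2 controls 6 of 22 rose, against 3.93% of all genes. Between the control groups 19 of the list were tested, so some of the 22 passed the filter on low counts through the WD libraries. The filter thus favoured the WD direction, and nothing is read from the signs or the median. Mki67, a marker of cycling cells, was at 16.4 ± 22.2, 44.1 ± 17.5 and 3.37 ± 1.49 CPM in the order used above, and Top2a, a DNA topoisomerase of dividing cells, at 8.33 ± 6.90, 48.1 ± 21.2 and 10.6 ± 3.34. In batch 1 Top2a was higher in WD by 2.53 on the log2 scale, with FDR = 0.434 by edgeR. The 8 macrophage markers summed to 170 to 1380 CPM for batch 1 controls, 1264 to 1812 for WD and 298 to 644 in the batch 2 controls. Of these 8 markers 4 were higher in batch 1 with an unadjusted p under 0.05 in edgeR's test, against 3.35% of all genes. There 0 had an FDR under 0.05, and the lowest log2 fold change was -0.51. Against the batch 2 controls 7 rose in edgeR's test, against 3.93% of all genes. The other marker was lower there, at -0.72 on the log2 scale (unadjusted p under 0.05 by edgeR, as for 7.9% of all genes). Control replicate 4, the control with the highest Hist1h2ap, was also the highest control for this sum at 1380 CPM. The other controls were at 696 CPM or less and the WD libraries at 1264 CPM or more. The sum was lowest of all 14 libraries in control replicate 1, the library with epididymis RNA, and highest in WD replicate 4. Hist1h2ap was lowest in control replicate 2 and highest in WD replicate 2. The 8 adipocyte markers summed to 6231 to 47351 CPM, 25085 to 38274 and 53750 to 65316 in the same order. The part of these cells in the histone values was not tested.

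RNAs known to lack a poly(A) tail were read beside the members. The 129 such rows of the table, mostly small nucleolar RNAs, summed to 4892, 713, 531 and 78.8 CPM in control replicates 1 to 4, to 153 to 753 in the WD libraries and to 95.2 to 584 in the batch 2 controls. Control replicates 1 and 4 were at the ends of this range, and both had more Hist1h2ap than the other 7 controls. The WD and control ranges of this sum overlapped. Its part in the histone values was not tested.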

How the data were processed

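QuantSeq 3′ mRNA libraries of eWAT were read as 75-base single-end reads. The authors placed reads on mm10 with Bowtie2 and made counts per gene from Bedtools coverage, in which reads with several alignments were kept beside unique ones. Versions and the annotation release are not given in the sources used here. Counts were used as deposited, 1 value per gene and library. The deposited log2 values (TMM and CPM, plus 1) were made by the authors with edgeR and used only to check the scale, from which the values computed here differed by at most 0.0507.

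Genes were tested on the whole table with edgeR 4.0.16 (filterByExpr, TMM, glmQLFit and glmQLFTest) under R 4.3.3, with Benjamini-Hochberg adjustment (FDR) at 0.05, fitting each pair of groups alone. Standard errors are the log2 fold change over the square root of F. DESeq2 1.42.0 and limma-voom (limma 3.58.1), other filters and scalings, omitted libraries and batch terms were alternatives. The fits were tested on simulated data. Stem-loops, A runs and shared windows were searched in GENCODE transcripts (GRCm38). Leading members by mean CPM and members past a threshold were named. The members and lists were chosen with earlier results of these data known.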

Additional observations from a re-analysis of the deposited data

Results flagged for a closer look

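In 3 of 42 groups of values examined, 1 library lay far from the others, where about 1 in 20 groups is expected by chance. The groups covered 13 members on the log2(CPM + 1) scale and the summed CPM, and all 3 flags fell on members. Hist1h2bc was at 7.17 in control replicate 1, against 8.41 to 8.65 in the other batch 1 controls. Hist1h2ah was at 1.93 in control replicate 1, against 0.22 to 0.45 in the others. Hist1h2be was at 0.397 in WD replicate 4, against 2.98 to 3.86 in the other WD libraries. Control replicate 1 is the library with epididymis RNA, whose part in these values was not tested.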

How the results depend on the processing

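Against the batch 1 controls, 0 members had an FDR under 0.05 in edgeR's test, and 2, Hist1h2ap and Hist1h2ao, by DESeq2, with all 14 libraries and no batch term, and without control replicates 1 and 4 together. Control replicates 1 and 4 were the highest controls for both genes, so the last of these settings favoured a difference. Against the batch 2 controls DESeq2 gave 7 members instead of 2, and 1154 instead of 773 of all 12070 genes. With 1 library left out at a time, the counts were 0 to 0 for both comparisons with the batch 1 controls and 2 to 3 for WD against batch 2, and the summed CPM was 783 to 935 for batch 1 controls, 1288 to 1430 for WD and 1055 to 1177 for batch 2. The sum fell to 548, 940 and 745 CPM in the same order without Hist1h2bc, and to 868 in batch 2 with members of equal counts taken once.

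The direction turned for low or small differences, and the cause was not tested. For WD against the batch 1 controls, Hist2h2aa1 was at -0.082 with all 14 libraries and no batch term and at -0.00398 without control replicates 1 and 4. Hist1h4h was at 0.081 by limma-voom and 0.15 with the replicate block, and ran from -0.40 to 0.62 with 1 library left out, as Hist1h2be did from -1.37 to 0.042. For batch 2 against batch 1 without control replicates 1 and 4, the values were 0.70 for Hist1h2ap, 0.62 for Hist1h2ao, -0.38 for Hist1h2be, 5.69 for Hist1h2ak and -0.11 for Hist1h4h. Hist1h2ak was at 0.46 by limma-voom and ran from -1.54 to 0.20 with 1 library left out. For WD against batch 2, Hist1h2bc ran from -0.034 to 0.31 and Hist1h1c from -0.12 to 0.38.

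The replicate numbers did not pair the samples, since deviations of same-numbered libraries correlated at -0.02 to 0.08 and 2 of 4 matched their own number best. The replicate block gave 0 members with an FDR under 0.05 by edgeR, as did replicates 1 to 4 without the block, a fit chosen after seeing the data. Depth limits the low members, since 51 of 68 were at 0 in some library.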
